A study of Rattus norvegicus with 16 samples.

Results

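*Gad1* encodes a glutamate decarboxylase, the enzyme that makes γ-aminobutyric acid (GABA), and it was examined together with the other enzymes of GABA synthesis and breakdown, *Gad2*, *Abat* and *Aldh5a1*. These 4 genes, of 14217 with a probe set of their own, were represented by 9 probe sets of the 31042 tested. *Gad1* was picked on its fall relative to naïve corneas, the largest of any named gene after suturing, so its values in those comparisons are given as a description with no test. *Gad2*, *Abat* and *Aldh5a1* were chosen by their place in the pathway, and all 9 probe sets are reported.

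The corneas came from male Wistar rats aged 12 to 16 weeks, on 16 Affymetrix GeneChip arrays with 1 cornea each, 4 per group. Naïve corneas, called control samples in the labels, had neither sutures nor drops. In the other 3 groups the right eye received 2 temporal sutures 1.5 mm from the limbus and 4 drops per day for 2 days, 8 in all, of goat IgG (the sham treatment, named anti-IgG in the labels), rat-specific anti-*Vegf* antibody or 1 mg/ml dexamethasone, a glucocorticoid. For both antibodies the labels give 20 mg/ml and the study's methods give the same figure in µg/ml. No group was sutured without drops, and none received drops without sutures, so each difference from naïve corneas holds the suture and the drops together. The labels describe the tissue as cornea without the scleral rim, and the methods as the piece between the suture and the limbus. Sutured corneas were taken on day 2 after suturing, a time at which the study saw no new vessel sprouts.

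Glutamate decarboxylases remove a carboxyl group from glutamate with the help of pyridoxal phosphate. The GABA so made is packed into vesicles by the transporter *Slc32a1*, acts on GABA-A receptor channels and on GABA-B receptors, and is taken back up by transporters of the *Slc6* family. *Abat* then converts it to succinic semialdehyde, which *Aldh5a1* oxidises to succinate for the citric acid cycle. GABA is known above all as the inhibitory transmitter of the brain, and it is also made outside the nervous system, as in pancreatic islets. The cornea holds a surface epithelium, a stroma of keratocytes, an inner endothelium and sensory nerve endings whose cell bodies lie outside the tissue.

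The promoter window of *Gad1* is shown because it covers the start of the gene picked for its fall relative to naïve corneas. It is taken from RefSeq on the GRCr8 build, chr3:75777202-75777501 on the + strand, with the table's start site at 75777452, in lower case with the letters TATAAA in capitals.
Gad1 promoter: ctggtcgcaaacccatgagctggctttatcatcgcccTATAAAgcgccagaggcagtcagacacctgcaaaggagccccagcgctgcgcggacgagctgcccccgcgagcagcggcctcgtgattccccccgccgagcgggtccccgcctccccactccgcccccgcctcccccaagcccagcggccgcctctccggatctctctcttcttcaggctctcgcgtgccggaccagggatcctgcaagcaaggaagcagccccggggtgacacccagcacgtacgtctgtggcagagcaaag
The gene spans 75777260 to 75818099 on chromosome 3. TATAAA, searched on both strands, occurred 1 time, 21 bases before the first base of the gene and 213 before that start site, and 14.2% of all 33469 such windows held it. The window was 67.7% G and C, more than in 88.4% of windows, and held 26 CG dinucleotides, more than in 84.8%. AGAACA, the letters of a glucocorticoid receptor half-site, had 0 matches on either strand in the windows of *Gad1*, *Gad2* and *Aldh5a1*, while 20.7% of all windows held it. A missing match says only that these letters are not in the window.

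Some quality measures set arrays apart and are given before the results. The 5′ minus 3′ difference of the beta-actin control probe sets, which falls as RNA is degraded or copied short, was −1.69 and −1.75 in naïve arrays 1 and 2, lower than in any other array. It was −0.87 and −0.82 in naïve arrays 3 and 4, from −0.79 to −0.59 in IgG, from −1.19 to −0.60 in anti-*Vegf* and from −1.38 to −0.95 in dexamethasone arrays. The same difference of the *Gapdh* control probe sets was −0.48 to −0.32 in dexamethasone and −0.43 to −0.16 in naïve arrays. In IgG arrays it was −0.15 to −0.04 and in anti-*Vegf* arrays −0.16 to −0.08. The mean log2 signal of the 24 poly-A control probe sets, which are read from RNA added to each sample during labelling, was 4.93 to 5.16 in naïve and 5.03 to 5.40 in dexamethasone arrays but 6.80 to 7.44 in IgG and 6.75 to 7.02 in anti-*Vegf* arrays. Comparisons of dexamethasone with IgG or anti-*Vegf* thus coincide with this split. So do those of IgG or anti-*Vegf* with naïve corneas. In all of them the treatment and whatever set the poly-A signals apart cannot be told apart. The *Gapdh* 5′ minus 3′ difference also separated dexamethasone arrays from all IgG and anti-*Vegf* arrays. In those comparisons the drug and whatever set that difference apart cannot be told apart either. All values below are log2 signals from robust multi-array averaging (RMA), so that a difference of 1 is a doubling. Signals of different probe sets are not compared as amounts of RNA, since probes bind with different strength.

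*Gad1* was read by a pair of probe sets. On 1368344_at, the brighter of them, the naïve arrays 1 to 4 read 9.54, 9.56, 8.12 and 7.75. The IgG arrays F17, F19, F22 and F23 read 5.38, 4.74, 4.99 and 4.61. The anti-*Vegf* arrays F1x, F2, F6 and F7 read 5.19, 5.75, 3.95 and 4.17. Up to this point the lowest naïve array lay well above every sutured array, and the naïve arrays themselves fell into a higher and a lower pair. The dexamethasone arrays F25, F26, F27 and F30 read 6.19, 4.62, 6.40 and 5.27, and F27 was the highest sutured array. Within an array, *Gad1* stood at percentiles 66.4 to 87.9 of all probe set signals in naïve corneas and at 8.8 to 46.8 in sutured ones.

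In order, the group means of 1368344_at were 8.74 ± 0.95 (SD, n = 4) in naïve corneas, 5.62 ± 0.83 in the dexamethasone group, 4.93 ± 0.34 in the IgG group and 4.77 ± 0.85 after anti-*Vegf*. Relative to naïve corneas the log2 difference was −3.81 in the IgG group, a 14.0-fold lower signal. It was −3.98 with anti-*Vegf*, 15.8-fold lower. With dexamethasone it was −3.12, 8.72-fold lower. Each had a standard error of 0.48, which does not allow for the choice of the gene on these differences. Among probe sets with 1 gene symbol 1368344_at ranked 1 for size of fall in every group, as the choice of the gene required. With unnamed probe sets included it ranked 1, 1 and 3 in the IgG, anti-*Vegf* and dexamethasone groups. The next largest falls of a named gene were −2.70 for *Cxcl14*, a chemokine of resting epithelium, in the IgG group, −3.31 for *Mamdc2* in the anti-*Vegf* group and −2.90 for *Cxcl14* in the dexamethasone group. In a bulk sample, fewer cells that express *Gad1* and less *Gad1* RNA per cell cannot be told apart.

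**Figure D1:**
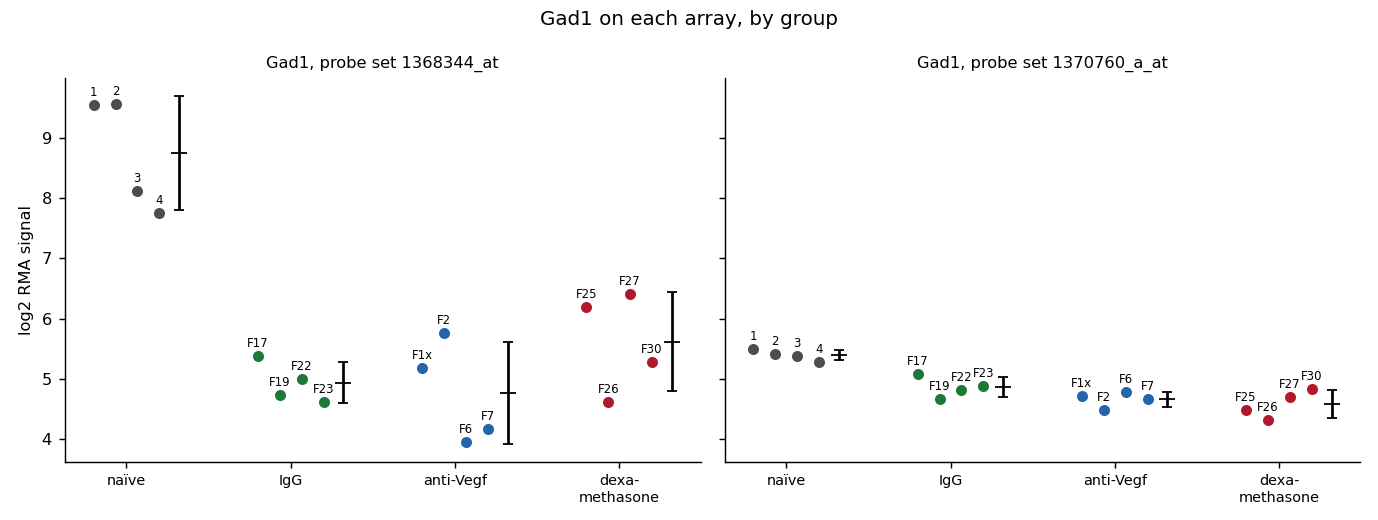
*Gad1* log2 RMA signal (vertical axis) on each of the 16 arrays, by group (horizontal axis), for its 2 probe sets. Each point is 1 cornea with its array label, and the bar gives the mean ± SD of 4. On 1368344_at the naïve arrays read 7.75 to 9.56 and the sutured arrays 3.95 to 6.40, and on 1370760_a_at they read 5.29 to 5.49 and 4.31 to 5.08.

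The second probe set, 1370760_a_at, whose suffix marks a probe set shared by several transcripts of 1 gene, gave a much smaller difference. The naïve arrays read 5.49, 5.41, 5.38 and 5.29. The IgG arrays, in the same order as above, read 5.08, 4.67, 4.82 and 4.89, and the anti-*Vegf* arrays 4.71, 4.49, 4.78 and 4.66. The dexamethasone arrays read 4.48, 4.31, 4.70 and 4.83, so here too no sutured array reached a naïve one. The log2 differences from naïve corneas were −0.53, −0.73 and −0.81 in the IgG, anti-*Vegf* and dexamethasone groups, each with a standard error of 0.11. These falls ranked 2375, 1151 and 655 among all probe sets. The probe set was dim in every group, at percentiles 28.9 to 32.4 of an array in naïve corneas and 14.3 to 25.6 in sutured ones. Both probe sets were thus lower in sutured corneas, but by unlike amounts, and the sources used here do not name the transcripts or exons that each one reads.

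Between treatments no probe set of *Gad1* passed the test, which was limma's moderated test with Benjamini-Hochberg adjustment over the 31042 probe sets at an adjusted p of 0.05. On 1368344_at dexamethasone arrays exceeded IgG arrays by 0.69, with a 95% interval from −0.33 to 1.71 (adjusted p = 0.406 by limma), and anti-*Vegf* arrays by 0.85, from −0.17 to 1.87 (adjusted p = 0.325 by limma). The interval for anti-*Vegf* minus IgG ran from −1.19 to 0.85 around −0.17 (adjusted p = 0.99 by limma). These intervals reach up to 1.87 on the log2 scale, so the arrays do not show that *Gad1* stood at the same level under the treatments. The order of dexamethasone and IgG was turned on 1370760_a_at, where dexamethasone minus IgG was −0.28, from −0.52 to −0.05 (unadjusted p = 0.0225 and adjusted p = 0.127 by limma). That difference was called when dexamethasone array F30 was left out, at −0.37 (adjusted p = 0.0492 by limma). The neighbouring groups dexamethasone, IgG and anti-*Vegf* overlapped on both probe sets.

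Arrays of 1 group differed more on 1368344_at than on nearly any other probe set. Its standard deviation within groups was 0.78, at percentile 99.7 of all probe sets, against a median of 0.16 over all of them, while that of 1370760_a_at was 0.16. Over the 16 arrays, the deviations of 1368344_at from its group means had r = −0.53 with those of the actin 5′ minus 3′ difference, −0.53 with those of the *Gapdh* 5′ minus 3′ difference and 0.05 with those of the poly-A controls. For 1370760_a_at the values were 0.04, 0.004 and −0.09. With the mean signals of the marker lists described at the end, 1368344_at had r from −0.41 to 0.61. The highest was with genes that mark GABAergic neurons and the next, 0.49, with keratocyte genes. Each r is for a list mean and not for single genes. In the GABAergic list *Slc32a1* was dim and not lower after suturing, with a mean of 3.68 in naïve corneas and 3.87, 3.86 and 3.70 in the IgG, anti-*Vegf* and dexamethasone groups. The r values are descriptions over arrays that share groups and labelling. The naïve arrays with the lowest actin difference, 1 and 2, had the highest *Gad1* signals, and the part of RNA quality in the size of the difference was not tested. Without them, an alternative chosen after seeing the data, the log2 differences of 1368344_at were −3.00, −3.17 and −2.31 in the IgG, anti-*Vegf* and dexamethasone groups. The dexamethasone arrays had poly-A levels close to those of naïve arrays and read 4.62 to 6.40 for *Gad1*. The IgG and anti-*Vegf* arrays, with higher poly-A levels, read 4.61 to 5.38 and 3.95 to 5.75. The part of the poly-A split in *Gad1* was not tested.

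**Figure D2:**
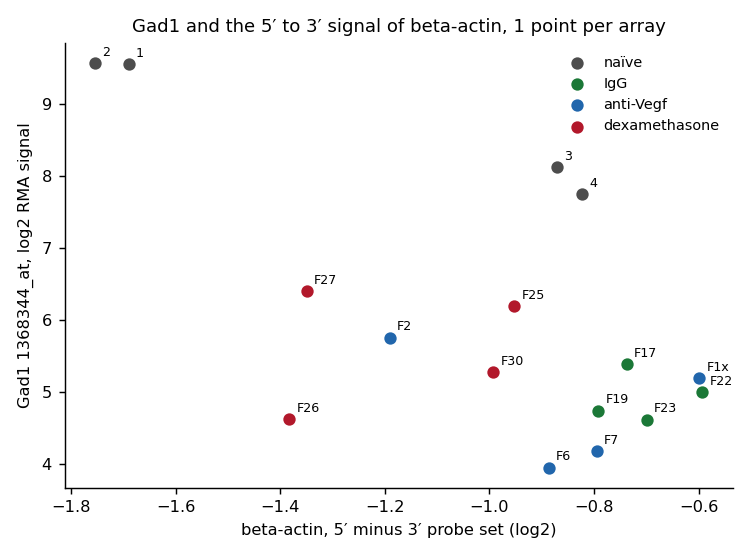
*Gad1* log2 RMA signal of 1368344_at (vertical axis) against the beta-actin 5′ minus 3′ difference, in log2 units (horizontal axis), 1 labelled point per array, coloured by group. Naïve arrays 1 and 2 lie at −1.69 and −1.75 on the horizontal axis and read 9.54 and 9.56. Naïve arrays 3 and 4 lie at −0.87 and −0.82 and read 8.12 and 7.75. The sutured arrays lie from −1.38 to −0.59 and read 3.95 to 6.40.

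*Gad2* encodes the other glutamate decarboxylase. Its probe set 1369462_at was dim throughout, at percentiles 8.6 to 13.2 of an array, and no detection calls were at hand to say whether it measured more than background. The naïve arrays read 3.99, 4.12, 4.04 and 4.18, the IgG arrays 4.18, 4.01, 4.11 and 4.16, the anti-*Vegf* arrays 3.93, 3.90, 3.97 and 3.96, and the dexamethasone arrays 4.21, 4.16, 4.03 and 4.11. The anti-*Vegf* arrays lay just below all the others without overlap, by 0.14 relative to naïve corneas (standard error 0.07). That difference did not pass (adjusted p = 0.135 by limma), and neither did −0.17 relative to IgG (adjusted p = 0.74 by limma) nor 0.19 for dexamethasone minus anti-*Vegf* (adjusted p = 0.114 by limma).

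*Abat*, which encodes the transaminase that breaks GABA down, was read by 3 probe sets. On 1369799_at the naïve arrays read 5.41, 5.06, 6.91 and 5.64 and the IgG arrays 6.05, 6.67, 5.74 and 5.46. The anti-*Vegf* arrays read 5.85, 6.41, 6.39 and 5.996, and the dexamethasone arrays 5.70, 6.21, 5.20 and 6.52. Naïve array 3 was the highest of all 16 and naïve array 2 the lowest, so the naïve group spanned the sutured ones. The differences from naïve corneas were 0.22, 0.40 and 0.15 in the IgG, anti-*Vegf* and dexamethasone groups, each with a standard error of 0.36. Without naïve arrays 1 and 2 they turned to −0.30, −0.11 and −0.37. The within-group standard deviation of 0.58 was at percentile 98.7 of all probe sets. The other 2 probe sets, 1375321_at and 1391365_at, varied less. They ranged over all arrays from 5.42 to 6.07 and from 5.12 to 5.67, with differences from naïve corneas between −0.11 and 0.04. Nothing passed on any of the 3, and adjusted p in limma was 0.453 or higher relative to naïve corneas.

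*Aldh5a1* encodes succinic semialdehyde dehydrogenase, the last step of the route. On 1371062_at the naïve arrays read 6.02, 5.87, 6.53 and 6.24 and the dexamethasone arrays 6.23, 6.14, 6.05 and 6.32. The IgG arrays read 6.47, 6.46, 6.70 and 6.22, and the anti-*Vegf* arrays 6.51, 6.26, 6.61 and 6.58. The last 2 groups were higher than most naïve arrays but overlapped them. The difference from naïve corneas was 0.30 ± 0.13 (SE) in the IgG group (unadjusted p = 0.0397 and adjusted p = 0.112 by limma), 0.33 ± 0.13 with anti-*Vegf* (unadjusted p = 0.0259 and adjusted p = 0.0837 by limma) and 0.02 ± 0.13 with dexamethasone. Without naïve arrays 1 and 2 these were 0.08, 0.11 and −0.20. The other probe sets, 1379900_at and 1391657_at, ranged from 5.02 to 5.73 and from 4.97 to 5.38 over all arrays. Their differences from naïve corneas lay between −0.23 and 0.06, so these differences, none of them called, did not share a direction. Between treatments, dexamethasone arrays were lower than IgG arrays by 0.28 and 0.17 on 1371062_at and 1391657_at, and lower than anti-*Vegf* arrays by 0.31 and 0.18. None of these passed (adjusted p from 0.172 to 0.216 by limma). On 1379900_at the differences were −0.10 for dexamethasone minus IgG and 0.004 for dexamethasone minus anti-*Vegf*.

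**Figure D3:**
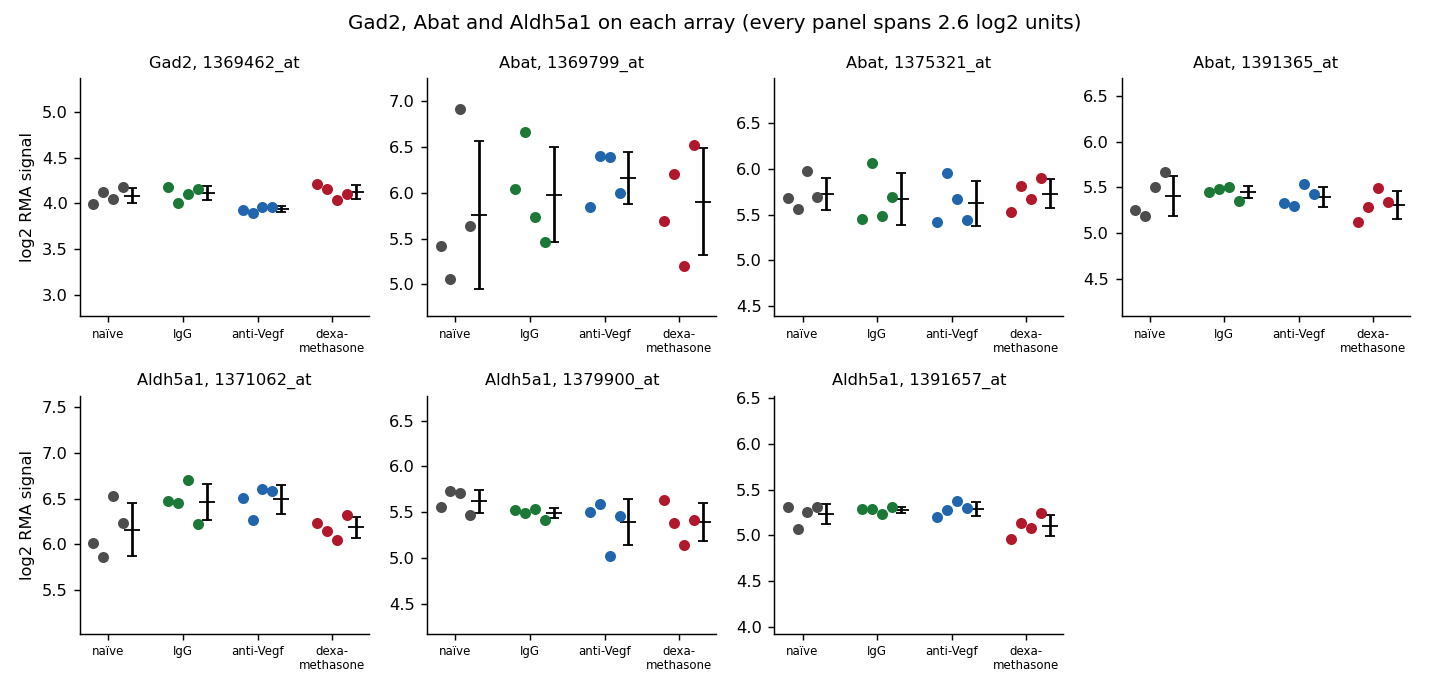
Log2 RMA signal (vertical axis) of the 7 probe sets of *Gad2*, *Abat* and *Aldh5a1* on each of the 16 arrays, by group (horizontal axis). Points are single corneas, bars the mean ± SD of 4, and every panel spans the same number of log2 units. Naïve and sutured arrays overlap in every panel, except that the anti-*Vegf* arrays of *Gad2*, at 3.90 to 3.97, lie below the naïve ones.

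For these genes together, 0 of the 7 probe sets of *Gad2*, *Abat* and *Aldh5a1* were DEGs relative to naïve corneas in any group, where a DEG needed a limma adjusted p under 0.05 and a change of at least 1.5-fold. Of all 31042 probe sets, 5.26% rose and 5.44% fell in the IgG group, 5.29% and 5.66% with anti-*Vegf* and 5.41% and 4.27% with dexamethasone. At an unadjusted p under 0.05, 1 of the 7 was higher in the IgG group, 1 higher and 1 lower with anti-*Vegf*, and 0 with dexamethasone. Of all 31042 probe sets, 5191 were higher and 6447 lower at that limit in the IgG group. With anti-*Vegf* these counts were 5073 and 6286, and with dexamethasone 4704 and 5435. The 7 had median log2 differences of 0.04, −0.01 and 0.00, beside −0.01, −0.02 and −0.02 over all probe sets. Between treatments 0 of the 9 probe sets, *Gad1* included, passed an adjusted p of 0.05. The share of all probe sets that did was 5.37% higher and 4.56% lower for dexamethasone minus IgG, 3.48% higher and 3.31% lower for dexamethasone minus anti-*Vegf*, and 0% in either direction for anti-*Vegf* minus IgG. At an unadjusted p under 0.05 in limma the 9 gave 2, 3 and 1 differences in these comparisons. Over all probe sets, 3994 were higher and 3651 lower at that limit for dexamethasone minus IgG. For dexamethasone minus anti-*Vegf* the counts were 3615 and 3102, and for anti-*Vegf* minus IgG 1046 and 736. With 7 or 9 probe sets, a count of 0 at the adjusted limits lies close to what the shares above give. Only 3 of the 9 were brighter than 40% of probe sets on 4 or more arrays, and *Gad1* 1368344_at did so on 6 arrays, the 4 naïve ones among them.

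Other genes of GABA signalling and of glutamate supply were described from a list of 55 genes, of which 45 were measured by 71 probe sets. The same limits called 3 rises and 6 falls in the IgG group, 3 and 7 with anti-*Vegf*, and 4 and 5 with dexamethasone, that is 4.23% and 8.45%, 4.23% and 9.86%, and 5.63% and 7.04% of the list. Over all probe sets the shares were 5.26% and 5.44%, 5.29% and 5.66%, and 5.41% and 4.27%. Its median log2 differences were −0.03, −0.07 and −0.06. Among the receptors, the ionotropic GABA-A subunits were measured by 24 probe sets of 16 genes, and 0 were called in any of the 6 comparisons. At an unadjusted p under 0.05 in limma 1 was higher and 4 lower in the IgG group, 0 and 5 with anti-*Vegf*, and 0 and 3 with dexamethasone. Of all 31042 probe sets, the counts at that limit were 5191 higher and 6447 lower, 5073 and 6286, and 4704 and 5435. Group means of these probe sets ran from 3.03 to 8.44, and 2 probe sets, of *Gabrd* and *Gabrr2*, exceeded 6 in every group while no other did. The 3 measured GABA transporters, *Slc32a1*, *Slc6a11* and *Slc6a13*, gave 0 calls.

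The calls among receptor genes were all of *Gabbr1*, a subunit of the metabotropic GABA-B receptor. On 1375720_at the naïve arrays read 8.40, 8.05, 8.34 and 8.36, and the IgG arrays 7.09, 6.99, 7.26 and 6.79. The anti-*Vegf* arrays read 7.41, 7.59, 6.96 and 7.33 and the dexamethasone arrays 7.55, 7.43, 7.38 and 7.78. Every sutured array lay below every naïve one, and *Gabbr1* fell by 1.26, 0.97 and 0.75 in the IgG, anti-*Vegf* and dexamethasone groups (standard error 0.14, adjusted p = 9.02e-06, 8.45e-05 and 0.000785 by limma). With dexamethasone it was 0.50 above IgG (adjusted p = 0.028 by limma), a call lost without any 1 of F17, F19, F23, F25 or F30 (adjusted p from 0.0503 to 0.0835 by limma). A second probe set, 1388039_a_at, fell by 0.66 and 0.63 in the IgG and anti-*Vegf* groups, the latter −0.56 without array F7, which is under 1.5-fold. The remaining 3 of *Gabbr1* and the 2 of *Gabbr2*, the partner subunit, were not called relative to naïve corneas. Those 3 of *Gabbr1* had slightly higher means in the IgG group than in naïve corneas, 4.54 against 4.45, 5.94 against 5.89 and 6.38 against 6.27. With anti-*Vegf* and with dexamethasone they lay on both sides of the naïve means. Of 5 probe sets for genes of receptor anchoring and trafficking, 1 was called, 1378842_at of *Gabarapl1*, a relative of the GABA-A receptor-associated protein that also acts in autophagy. It fell with dexamethasone, by 0.65 relative to naïve corneas (adjusted p = 0.026 by limma), where the groups overlapped, and by 0.67 relative to IgG (adjusted p = 0.041 by limma), where they did not. The first call was lost without any 1 of F26, F27, F30 or naïve arrays 3 and 4 (adjusted p from 0.0519 to 0.089 by limma), and the second without any 1 of F19, F22, F23, F26, F27 or F30 (adjusted p from 0.0707 to 0.126 by limma).

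Genes of glutamate supply held all the rises from naïve corneas but 1, that of *Maob* with dexamethasone. *Slc1a1*, a glutamate transporter, rose on 1387932_at from naïve readings of 9.50 to 9.81 to between 10.37 and 11.03 in sutured arrays, by 1.02, 1.02 and 1.09 in the IgG, anti-*Vegf* and dexamethasone groups (standard error 0.14, adjusted p = 8.08e-05, 7.08e-05 and 4.43e-05 by limma). Its other probe set, 1370367_at, rose by 0.74, 0.66 and 1.07 (adjusted p = 0.0191, 0.0358 and 0.00209 by limma), the first call lost without F17 or naïve array 4 and the second without any 1 of F1x, F6, F7 or naïve arrays 2 and 4 (adjusted p up to 0.0613 and 0.113 by limma). *Got1*, an aminotransferase that links glutamate to aspartate, rose by 0.73, 0.81 and 0.90 from a naïve mean of 6.29, and without naïve arrays 1 and 2 the first was 0.51 and not called. *Glul*, glutamine synthetase, fell on 1 of its 3 probe sets, 1367632_at, by 0.60 and 0.81 in the IgG and anti-*Vegf* groups, and the first was −0.53, −0.56 and −0.58 without F23, naïve array 1 or naïve array 2, under 1.5-fold each time, and −0.51 without both naïve arrays. On another, 1367633_at, dexamethasone minus IgG was −0.95 (adjusted p = 0.045 by limma), a call lost without any 1 of F17, F19, F22, F23, F26, F27 or F30 (adjusted p from 0.0629 to 0.137 by limma). The glutamate transporter *Slc1a3* was 1.05 higher with dexamethasone than with IgG on 1368565_at (adjusted p = 0.0127 by limma), and 0.84 higher than with anti-*Vegf* (adjusted p = 0.0485 by limma). The second call was lost without any 1 of F1x, F2, F6, F7, F26 or F27 (adjusted p from 0.0542 to 0.143 by limma), and the 2 other probe sets of the gene were not called.

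Of the 12 probe sets of related decarboxylases, of the route from polyamines and of succinic semialdehyde handling, 3, 4 and 3 fell and 0, 0 and 1 rose in the IgG, anti-*Vegf* and dexamethasone groups. *Csad*, a decarboxylase related to the *Gad* genes that acts in taurine synthesis, read 9.74 to 10.01 in naïve and 8.78 to 9.37 in sutured arrays, and fell by 0.77, 0.78 and 0.74. *Adhfe1*, which oxidises γ-hydroxybutyrate, read 5.70 to 6.26 in naïve and 4.95 to 5.40 in sutured arrays and fell by 0.76, 0.90 and 0.72, of which the first and last were −0.57 and −0.53, under 1.5-fold, without naïve arrays 1 and 2. *Aldh1a1*, a retinaldehyde dehydrogenase that can also form GABA from polyamines, read 12.90 to 13.24 in naïve and 11.31 to 12.51 in sutured arrays and fell by 1.19, 1.45 and 0.75 (adjusted p = 4.39e-05, 7.15e-06 and 0.00201 by limma). It was 0.69 higher with dexamethasone than with anti-*Vegf* (adjusted p = 0.0141 by limma), and not called when only these groups were fitted (adjusted p = 0.0593 by limma).

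*Maob*, a monoamine oxidase that also acts on putrescine derivatives, differed most between treatments. The dexamethasone arrays F25, F26, F27 and F30 read 8.57, 8.01, 7.80 and 7.65 on 1368514_at, and the naïve arrays 7.10, 7.13, 7.24 and 7.08. The anti-*Vegf* arrays read 6.44, 6.52, 6.51 and 6.24, and the IgG arrays 6.10, 6.90, 7.38 and 6.77. The dexamethasone arrays lay above all others, by 0.87 relative to naïve corneas (adjusted p = 0.00784), 1.22 relative to IgG (adjusted p = 0.0027) and 1.58 relative to anti-*Vegf* (adjusted p = 0.000794, all by limma). With anti-*Vegf* the gene fell by 0.71 relative to naïve corneas (adjusted p = 0.0222 by limma), a call lost without F7, without naïve array 3 or without naïve arrays 1 and 2 (adjusted p = 0.064, 0.0523 and 0.0818 by limma). Over the list, dexamethasone minus IgG gave 3 higher and 2 lower, and dexamethasone minus anti-*Vegf* 3 higher and 0 lower. Both comparisons coincide with the splits in poly-A signal and in the *Gapdh* 5′ minus 3′ difference. The drug and those splits cannot be told apart in these comparisons. The list's 4.23% higher and 2.82% lower in the first of these lay near the shares of all probe sets. The 5 calls of dexamethasone minus IgG were 2 when IgG array F19 was left out, and 3 when F17, F22, F23, F26, F27 or F30 was. Leaving out F25 turned the 3 of dexamethasone minus anti-*Vegf* into 5. Anti-*Vegf* minus IgG gave 0 in limma, with 3 at an unadjusted p under 0.05.

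**Figure D4:**
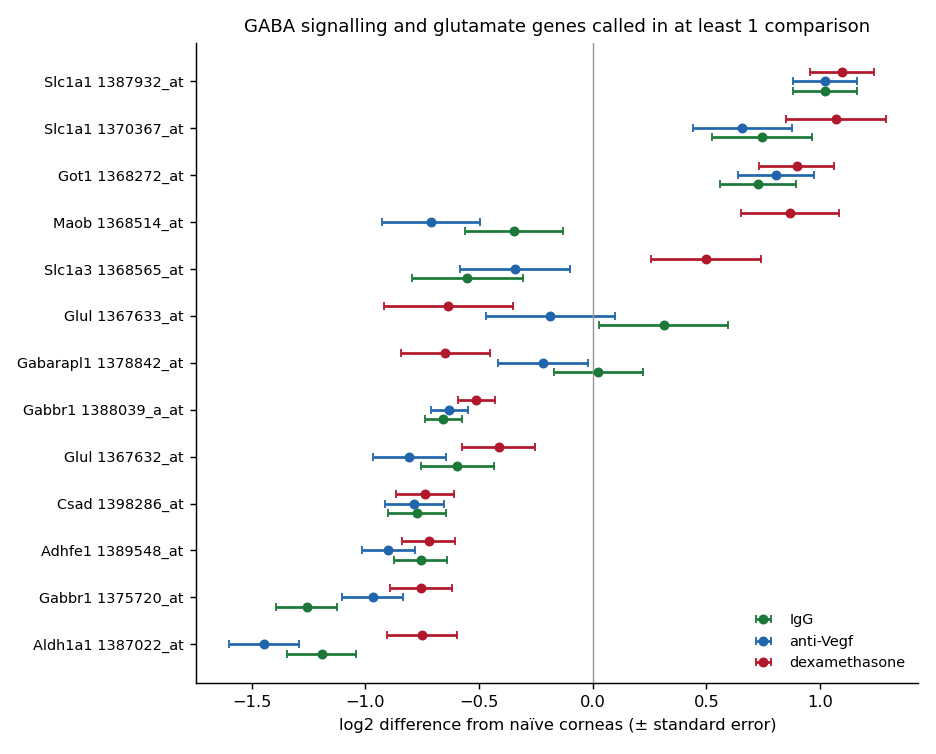
Log2 difference from naïve corneas (horizontal axis, points ± standard error, 4 arrays per group) for each probe set of the listed GABA and glutamate genes that was called in at least 1 of the 6 comparisons (vertical axis), coloured by treatment. *Slc1a1* and *Got1* lie right of 0 in the 3 groups and *Gabbr1*, *Csad*, *Adhfe1* and *Aldh1a1* left of it, while *Maob* lies at 0.87 with dexamethasone and −0.71 with anti-*Vegf*.

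The probe sets most like *Gad1* 1368344_at were sought among 20824 others with 1 gene symbol, over the 16 arrays, each value taken as the difference from its own naïve mean. Nearest by Euclidean distance were *Cxcl14* (3.82), *Ccdc141* (4.20), *Col25a1* (4.35), *Chad* (4.75), a cartilage matrix protein, and *Susd4* (5.33), a complement regulator, against 10.7 for the other *Gad1* probe set. Their differences from naïve corneas lay between −2.22 and −2.90, smaller than those of *Gad1* in the same groups. Both traits follow from the choice of *Gad1* as the largest fall. Probe sets near it by this distance had to be other large falls, and none could exceed it. When only deviations from the group means were compared, the closest were *Wdr47* (r = 0.93), *Rbl2* (0.92), *Pcmtd2* (0.92), *Cdkn1b* (0.92) and *Mef2a* (0.92). These 5 differed from naïve corneas by only −0.21 to −0.82. The other *Gad1* probe set had r = 0.20, and the probe sets of *Gad2*, *Abat* and *Aldh5a1* had r from −0.57 to 0.37. The arrays share groups, labelling and RNA quality, and no p is given.

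**Figure D5:**
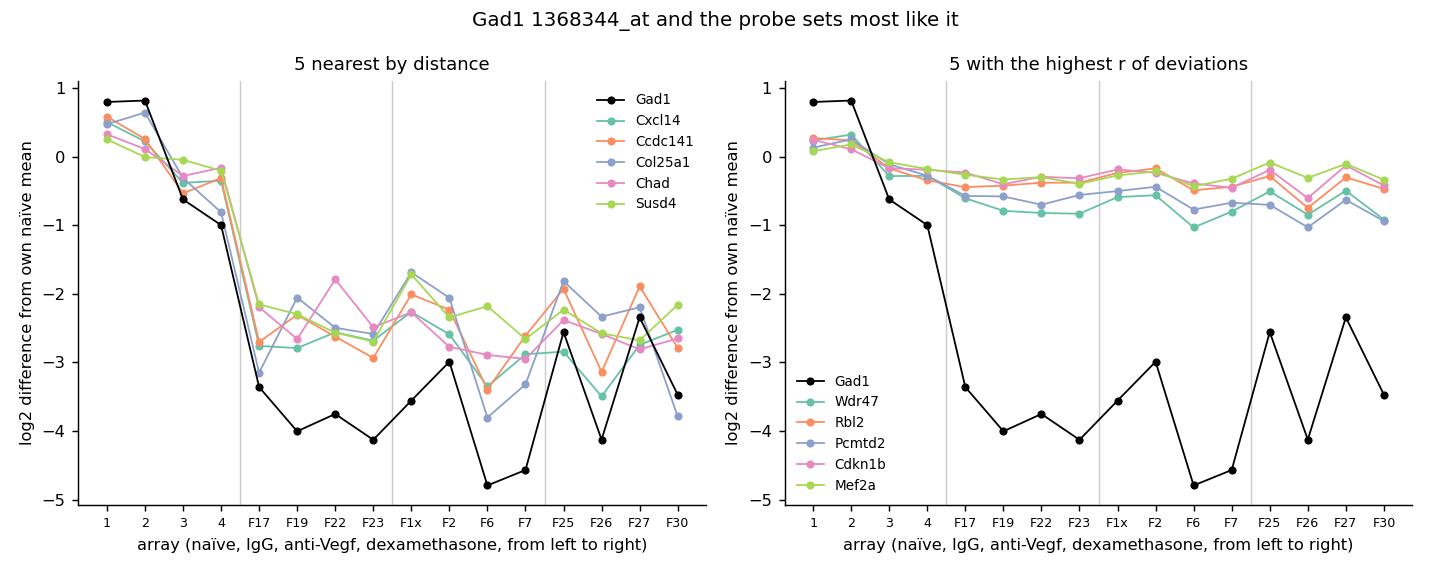
Log2 difference of each array from the naïve mean of its own probe set (vertical axis) over the 16 arrays (horizontal axis, groups divided by grey lines), for *Gad1* 1368344_at in black and the 5 probe sets nearest to it by distance (left) or by r of deviations from the group means (right). On the left all 6 lines lie below −1.5 on every sutured array, and on the right that of *Gad1* alone does. The left panel holds large falls by construction, since distance was taken to the gene picked for the largest fall.

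Markers of the cells that could hold *Gad1* were set beside it, as mean log2 signals of each list per array. For 7 genes of corneal epithelium the mean lay from 13.79 to 13.93 in all groups, but its members did not move alike. *Krt14*, a keratin of basal cells, rose from a naïve mean of 12.75 to 14.37, 14.44 and 14.31 in the IgG, anti-*Vegf* and dexamethasone groups. The other 6 were not called, and 3, 3 and 4 of them were lower at an unadjusted p under 0.05, with list medians of −0.21, −0.17 and −0.22. For 5 keratocyte genes it was 11.89 to 12.54 in naïve, 11.51 to 11.88 in IgG, 10.95 to 11.66 in anti-*Vegf* and 11.67 to 11.92 in dexamethasone arrays. Of their 10 probe sets 6, 8 and 7 fell in the IgG, anti-*Vegf* and dexamethasone groups, where 5.44%, 5.66% and 4.27% of all probe sets fell. *Dcn* went the other way without a call on its brightest probe set. Its mean was 13.78 in naïve corneas and 13.94, 13.86 and 14.06 in the IgG, anti-*Vegf* and dexamethasone groups. For 4 genes of corneal endothelium the list mean was 10.31 to 10.82 in naïve and 8.40 to 10.03 in sutured arrays, and 5, 5 and 2 of 6 probe sets fell. In the IgG and anti-*Vegf* groups 1 of the 6 was higher at an unadjusted p under 0.05 in limma. All 9 probe sets of 7 leukocyte genes rose in each sutured group, and their mean was 5.77 to 5.86 in naïve and 7.60 to 8.64 in sutured arrays. The 5 genes of conjunctiva and limbus gave 1 rise, in the IgG group, and skeletal muscle gave 0 calls.

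Of 9 nerve and Schwann cell genes, *Gap43*, a growth cone protein, and *S100b*, a Schwann cell protein, fell in each sutured group, and 10 of the 12 probe sets were not called. Among those not called, *Tubb3* went the other way. Its mean was 6.49 in naïve corneas and 6.77, 7.07 and 6.74 in the IgG, anti-*Vegf* and dexamethasone groups. *Snap25* and *Uchl1* also had higher means with dexamethasone, 6.15 and 7.11, than in naïve corneas, 5.66 and 6.90. The list mean was 5.98 to 6.05 in naïve and 5.60 to 5.87 in sutured arrays. Of 5 measured genes that mark GABAergic neurons, *Npy*, a neuropeptide, and *Dlx5*, a homeobox factor, fell in each sutured group. *Npy* went from a naïve mean of 13.44 to 11.99, 12.30 and 11.54 and *Dlx5* from 8.69 to 7.86, 7.62 and 7.77 in the IgG, anti-*Vegf* and dexamethasone groups. The vesicular GABA transporter *Slc32a1*, which defines neurons that release GABA, read 3.46 to 3.99 on all arrays, and *Sst* 3.53 to 4.32. Neither had a lower mean in any sutured group than in naïve corneas. *Dlx1*, another homeobox factor, was not called, with a naïve mean of 5.70 and means of 5.32, 5.35 and 5.54 in the IgG, anti-*Vegf* and dexamethasone groups. The list mean was 7.03 to 7.08 in naïve and 6.26 to 6.83 in sutured arrays. Markers of keratocytes, nerve and GABAergic neurons held both genes that were lower in the corneas in which *Gad1* was lower and genes that were not. The endothelium genes had lower means there on their brightest probe sets, and leukocyte markers were higher there. The part of any of these markers in the difference was not tested.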

How the data were processed

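RNA of 16 rat corneas was measured on Affymetrix GeneChip arrays, 1 cornea per array and 4 arrays per group, which the methods say were kept for RNA integrity. The authors deposited log2 signals per probe set, made with RMA in Affymetrix Expression Console as the submitters' processing notes name them. The table was used as deposited, and 0 value columns were left out. Array medians lay between 6.548 and 6.614. RMA averages probes and fits quantiles over all arrays, so it compresses differences of dim probe sets, and the number of arrays limits the precision.

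Of 31099 probe sets, 57 controls were kept for quality checks. Of the 31042 tested, 20826 carry 1 gene symbol, 436 several and 9780 none. The Entrez IDs of 20758 were found in the RefSeq gene table (GRCr8) and 0 symbols needed an update. Promoter sequence is from RefSeq on GRCr8, with a window for 3 of the 4 members. *Abat* is not shown.

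Tests were run in R 4.3.3 with limma 3.58.1, fitting a mean for each group over 16 arrays (12 residual degrees of freedom), and p-values were adjusted over 31042 probe sets by Benjamini and Hochberg. The limits of the study's methods, an adjusted p of 0.05 with a change of 1.5-fold, defined DEGs against naïve corneas, and the p limit alone was used between treatments. The fit was tested on simulated data. The 6 comparisons share groups, so they are not independent. Tables were handled in Python 3.11.15 with pandas 2.3.3, and figures drawn with matplotlib 3.10.9.

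The members and gene lists were chosen with earlier results of these data known. Named genes are all member probe sets, up to 4 called probe sets of the pathway list with the largest differences in each comparison, and the 5 nearest to *Gad1* by either measure of likeness. *Glul* 1367632_at, *Gabbr1* 1388039_a_at, the GABA-A subunits, the transporters and the markers named singly were chosen after their values were seen.

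Alternatives were robust moderation with a trend of variance on signal, array weights, fits of only the compared groups, cyclic loess, centring on reference genes, a filter on dim probe sets, unadjusted p, the brightest probe set per gene, no fold limit, and leaving out each array in turn. Another background correction or a batch term was not run, since the scans were not used here and the labels give no scan or slide batch.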

Additional observations from a re-analysis of the deposited data

Results flagged for a closer look

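Each group of 4 arrays was examined for 1 array far from the other 3, by its gap to the nearest array as a share of the group's whole range, against Dixon's critical value for 4 values. Of 128 groups of the members, the called pathway probe sets and the probe sets most like *Gad1*, 3 passed the limit, and chance passes about 1 in 20 groups. None of the 3 is a member probe set. *Slc1a3* 1368565_at read 7.10 on IgG array F17 and 7.82 to 7.88 on the other IgG arrays, a share of 0.931. *Aldh1a1* 1387022_at read 12.51 on dexamethasone array F25 and 12.26 to 12.30 on the others, a share of 0.856. *Pcmtd2* 1374454_at, which was close to *Gad1* in its deviations, was set apart on IgG array F22, with a share of 0.85.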

How the results depend on the processing

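No paired analysis was possible because naïve and sutured arrays were numbered in separate series and nothing in the labels ties a number of one group to another. Over the alternatives, 659 of 660 values for single member probe sets kept their side of the threshold and 1 passed it, *Gad1* 1370760_a_at without dexamethasone array F30. Of the 660, 64 changed sign while uncalled. For called pathway probe sets, 472 of 529 values kept their call and 57 lost it, and 0 turned direction. Without naïve arrays 1 and 2 the *Gad1* 1368344_at differences were −3.00, −3.17 and −2.31. With single arrays left out they ranged from −4.14 to −3.54 for IgG, −4.31 to −3.70 for anti-*Vegf* and −3.46 to −2.79 for dexamethasone. Pathway calls of dexamethasone minus anti-*Vegf* were 5 with array weights or the filter on dim probe sets, 1 when only these groups were fitted, and 2 to 5 with single arrays left out. Those of dexamethasone minus IgG were 3 with the brightest probe set per gene and 2 to 4 with single arrays left out, where member calls were 0 to 1. At an unadjusted p, member calls were 2, 1 and 3 and pathway calls 15, 3 and 11 for dexamethasone minus IgG, anti-*Vegf* minus IgG and dexamethasone minus anti-*Vegf*. With no fold limit the pathway calls were 18, 21 and 16 in the IgG, anti-*Vegf* and dexamethasone groups. The causes were not tested, apart from fewer arrays or other limits by construction. Centring on 6 reference genes moved the median of all probe sets by less than 0.1. Dim probe sets such as *Gad2* may hold a change that these arrays cannot show.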
